A study of Mus musculus with 6 samples.

Results

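The semaphorins, plexins and neuropilins are the ligands, receptors and co-receptors of a guidance system for axons, dendrites and vessels. The 31 genes described here are all the symbols in the mouse retinal expression tables that match the names Sema3 to Sema7, Plxna to Plxnd, Nrp1 and Nrp2, among 24346 symbols in all. They comprise 20 semaphorins, 9 plexins and 2 neuropilins. The rule goes by name and uses no measured value, but it was set with earlier results of these data known. The same holds for the lists of pathway and marker genes used below. Retinal mRNA had been sequenced from 3 samples with a conditional knockout of Cyfip2 (labelled Cyfip2 CKO, here CKO) and from 3 wild-type samples (labelled Cyfip2 WT, here WT) to assess how loss of Cyfip2 changes retinal transcripts. The labels do not give the driver of the deletion, the alleles of the WT samples, the strain, the age or the animals behind each sample. The p-values therefore reflect only how far these samples spread, and that spread may be technical. FPKM, the unit of every level given here, counts sequenced fragments relative to the length of the transcript and to the size of the library, so genes are set side by side per length.

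Semaphorins carry a sema domain and act on cells that display plexins, whose cytoplasmic part is a GTPase-activating domain that acts on small GTPases and, through them, on the actin and microtubule cytoskeleton. Class 3 semaphorins are secreted, and most of them need a neuropilin as the ligand-binding partner of an A-type plexin; Sema3e binds plexin D1 directly. Classes 4, 5 and 6 span the membrane, and Sema7a is held by a lipid anchor. In the mouse retina, Sema5a and Sema5b with plexins A1 and A3 keep inner retinal neurites inside the inner plexiform layer, and Sema6a with plexins A2 and A4 shapes the stratification of amacrine cell processes and the arbors of horizontal cells. Cyfip2, the targeted gene, encodes a subunit of the WAVE complex, which drives branched actin assembly.

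The sequences below are those directly upstream of the start site for 2 pairs of genes to which the results return: Sema7a and its receptor gene Plxnc1, whose CKO and WT libraries did not overlap, in opposite directions and short of the test's threshold, and Plxnb2 and Plxnb3, relatives at the high and the low end of the plexin levels. They come from RefSeq on GRCm38.p6, in which 26 of the 31 genes were matched by symbol, and are cut where GENCODE M21 (GRCm38) places the start of the gene. Capitals mark the dinucleotide CG, which reads the same on both strands.
Sema7a: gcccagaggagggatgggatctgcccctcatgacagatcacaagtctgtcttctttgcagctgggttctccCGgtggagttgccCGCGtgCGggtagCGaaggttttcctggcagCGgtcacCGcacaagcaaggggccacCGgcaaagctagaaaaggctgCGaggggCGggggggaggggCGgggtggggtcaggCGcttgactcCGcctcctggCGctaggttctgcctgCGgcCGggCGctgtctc
Plxnc1: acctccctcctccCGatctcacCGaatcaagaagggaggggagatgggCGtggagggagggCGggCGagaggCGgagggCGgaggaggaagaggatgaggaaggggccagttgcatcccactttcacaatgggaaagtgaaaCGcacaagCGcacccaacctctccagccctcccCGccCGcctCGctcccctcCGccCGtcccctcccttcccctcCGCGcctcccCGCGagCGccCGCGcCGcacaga
Plxnb2: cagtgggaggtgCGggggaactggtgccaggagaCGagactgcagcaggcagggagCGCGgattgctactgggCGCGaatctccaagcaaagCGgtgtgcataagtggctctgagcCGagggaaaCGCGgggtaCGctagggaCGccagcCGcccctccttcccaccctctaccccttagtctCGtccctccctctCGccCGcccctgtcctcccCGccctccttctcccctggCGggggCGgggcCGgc
Plxnb3: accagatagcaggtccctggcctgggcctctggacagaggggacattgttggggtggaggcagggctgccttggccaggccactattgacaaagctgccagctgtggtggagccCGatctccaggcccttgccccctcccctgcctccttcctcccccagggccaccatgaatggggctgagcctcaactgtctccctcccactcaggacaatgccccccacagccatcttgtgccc

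The windows are chr9:57939862-57940111 on the plus strand for Sema7a, chr10:94944846-94945095 on the minus strand for Plxnc1, chr15:89180789-89181038 on the minus strand for Plxnb2 and chrX:73756853-73757089 on the plus strand for Plxnb3. The Sema7a window holds 17 CG, that of Plxnc1 22 and that of Plxnb2 20, each in 250 bases. The Plxnb3 window holds 1 CG in 237 bases at a similar GC content, 64.6% against 69.2% for Plxnb2, and 3 CG when the 13 bases up to the RefSeq start are included. Over the 250 bases before the RefSeq start, the 26 matched genes held 1 to 39 CG with a median of 15.5. Count and level did not always run together as in Plxnb2 and Plxnb3. Sema3c held 39 CG and averaged 0.476 FPKM over the 6 libraries, whereas Sema4a held 2 CG and averaged 9.40 FPKM. Sema4d held 1 CG and averaged 11.4 FPKM, but its RefSeq start, at 51756683, lies inside the gene as placed by GENCODE (51685529 to 51793747, minus strand). A level covers the whole gene and may include transcripts from other starts. All 32851 promoters of the table had a median of 6, and 92.1% of them held at least 1. These counts describe the letters only; methylation and binding were not measured.

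Several members share a chromosome. Distances are those between members, and other genes that may lie between them were not considered. Sema3d, Sema3a, Sema3e and Sema3c lie in this order on chromosome 5 of GRCm38, from the start of Sema3d at 12383385 to the end of Sema3c at 17730268. The widest gap, between Sema3e and Sema3c, is 3.32 Mb. Sema3b (107597674 to 107609229) and Sema3f (107681500 to 107710475) are both on the minus strand of chromosome 9, 72.3 kb apart. Plxnb3 and Plxna3 lie 557 kb apart on the plus strand of the X chromosome. Members on the same chromosome could be at like or at unlike levels. The 4 genes on chromosome 5 all averaged below 5 FPKM over the 6 libraries, at 0.912 for Sema3d, 2.47 for Sema3a, 4.03 for Sema3e and 0.476 FPKM for Sema3c. By contrast, Sema3f averaged 38.4 FPKM and Sema3b 1.83 FPKM, and Plxna3 averaged 5.47 FPKM and Plxnb3 0.0481 FPKM.

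WT 3 stood apart as a library: its 10 most abundant genes took 9.66% of the summed FPKM, against 5.65% to 6.27% in the others. It also held the highest levels of the astrocyte marker Gfap (36.2 FPKM) and the microglial marker C1qb (13.3 FPKM) of the 6 libraries. Of the other listed markers of these cell types, Aldh1l1, Slc39a12, C1qa, Cx3cr1 and P2ry12 were also highest in WT 3. The rest were not: Pax2 was lowest there (0.460 FPKM), Csf1r and Tmem119 were highest in CKO 1, and Aif1 in WT 2. The cause was not tested, and Sema7a, the tested member with the widest spread, is given below with and without it.

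The retina held most of the family at moderate levels. Of the 31 members, 28 averaged 1 FPKM or more over the 6 libraries, 12 reached 10 FPKM and 7 reached 20 FPKM. The 3 below 1 FPKM were Sema3d, Sema3c and Plxnb3. The median level was 6.59 FPKM over all 31 members, 8.58 FPKM over the 28, and 12.6 FPKM over the 13215 genes that passed the same minimum. The 5 most abundant members, Sema4g, Sema3f, Plxna2, Plxnb1 and Plxnb2, together made up 46.8% of the summed FPKM of the family.

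**Figure D1:**
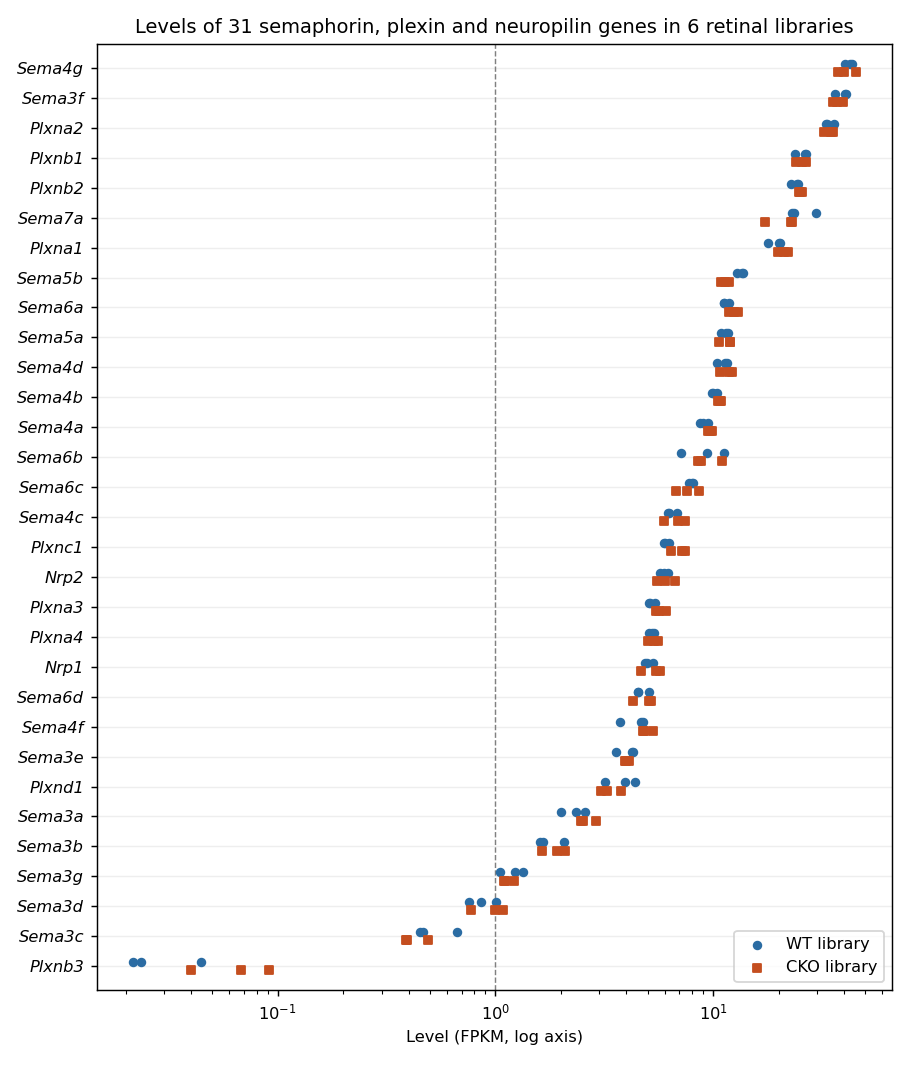
Level of each of the 31 genes in every library (x axis, FPKM on a log scale; WT libraries as blue circles, CKO libraries as orange squares), ordered by the mean over the 6 libraries. The dashed line marks 1 FPKM, the minimum mean for testing; Plxnb3, Sema3c and Sema3d have means below it, and Sema4g and Sema3f stand at the top.

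Among the secreted class 3 ligands, 1 gene dominated. Sema3f, which signals through neuropilin 2, was at 37.0, 35.7 and 39.7 FPKM in CKO libraries 1 to 3 and at 36.5, 40.5 and 40.8 FPKM in WT libraries 1 to 3. The other 6 class 3 genes together summed to 9.87 to 11.4 FPKM per library. In the order of their means, they were Sema3e (3.60 to 4.27 FPKM over the 6 libraries), the growth cone repellent Sema3a (2.001 to 2.90 FPKM), Sema3b (1.597 to 2.10 FPKM), Sema3g (1.05 to 1.34 FPKM), Sema3d (0.757 to 1.08 FPKM) and Sema3c (0.388 to 0.667 FPKM). Sema3e lay above Sema3a in every library with no overlap of their ranges, whereas the ranges of Sema3a and Sema3b, and those of Sema3g and Sema3d, overlapped.

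Membrane-bound ligands made up the larger part of the semaphorin signal. The 6 class 4 genes took 23.96% of the summed FPKM of the family, more than any other class in each library, and the first among them was Sema4g. It was at 37.7, 40.0 and 45.5 FPKM in CKO and at 42.7, 40.2 and 43.6 FPKM in WT. Sema4d, a ligand of B-type plexins, ranged from 10.4 to 12.2 FPKM, Sema4b from 9.93 to 10.9 FPKM and Sema4a, a gene needed for photoreceptor survival in mice, from 8.76 to 9.93 FPKM. Sema4c (5.96 to 7.41 FPKM) and Sema4f (3.73 to 5.31 FPKM) were lower. The ranges of Sema4d and Sema4b overlapped, and those of Sema4b and Sema4a just met.

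The class 5 genes were at like levels, with means over the 6 libraries of 12.4 FPKM for Sema5b and 11.4 FPKM for Sema5a. Of the class 6 genes, Sema6a led with 12.4, 13.1 and 11.8 FPKM in CKO and 11.2, 11.9 and 11.3 FPKM in WT. Its values overlapped between the groups in WT 2 and CKO 3 only. Sema6b (7.16 to 11.2 FPKM), Sema6c (6.74 to 8.62 FPKM) and Sema6d (4.27 to 5.22 FPKM) followed. The single class 7 gene, Sema7a, averaged 23.3 FPKM.

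Receptors were led by plexins A2, B1, B2 and A1. Plxna2, a receptor of Sema6a, was at 35.7, 34.8 and 32.4 FPKM in CKO and at 35.8, 33.4 and 32.9 FPKM in WT, above every other plexin in every library. Plxnb1, the receptor gene for Sema4d, was at 24.1, 25.6 and 26.7 FPKM in CKO and at 23.7, 26.6 and 26.4 FPKM in WT. It could not be ordered against Plxnb2 (22.9 to 25.5 FPKM), since Plxnb1 was the higher of the pair in 4 of 6 libraries. Plxna1 (17.9 to 22.1 FPKM) came next, and its range lay below that of both B-type genes.

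The remaining plexins were several-fold lower. Plxnc1, whose protein binds Sema7a, had a mean of 6.53 FPKM, and Plxna3 (5.098 to 6.10 FPKM) and Plxna4 (5.05 to 5.57 FPKM) overlapped in their ranges. Plxna2 was 6.23 to 7.07 times the level of Plxna4, the other A-type receptor of Sema6a. Plxnd1, the receptor gene for Sema3e, which is known from endothelial cells, was at 3.04, 3.27 and 3.78 FPKM in CKO and at 3.18, 3.92 and 4.39 FPKM in WT. Plxnb3 lay between 0.0216 and 0.0914 FPKM.

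Both neuropilins were lower than the leading plexins. Nrp2 was at 5.51, 6.71 and 6.002 FPKM in CKO and at 5.73, 5.93 and 6.24 FPKM in WT, and it exceeded Nrp1, which is also a co-receptor of vascular endothelial growth factor, in all 6 libraries. The ratio of Nrp2 to Nrp1 within a library was 1.01 to 1.29. Nrp1 ranged from 4.68 to 5.69 FPKM. Sema3f, the class 3 ligand that prefers neuropilin 2, stood at 5.32 to 6.83 times the level of Nrp2.

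The summed level of the 31 genes was 345.0 to 354.0 FPKM in CKO and 349.3 to 352.5 FPKM in WT libraries. Semaphorins made up 61.1% of this sum on average, plexins 35.7% and neuropilins 3.19%. The plexin sum was 126.6, 129.4 and 126.4 FPKM in CKO and 124.3, 124.7 and 120.9 FPKM in WT, so that the groups did not overlap. The CKO mean was 127.5 ± 1.67 FPKM and the WT mean 123.3 ± 2.12 FPKM (SD, n = 3 libraries per group), a description with no test. Without Plxna2 the plexin sums overlapped, at 91.0 to 94.6 FPKM in CKO and 88.0 to 91.3 FPKM in WT. By class, the sums of plexins A, B and D overlapped, and only plexin C, a single gene, did not. For the semaphorin sum the groups overlapped, at 211.7 ± 4.81 and 216.8 ± 3.37 FPKM.

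**Figure D2:**
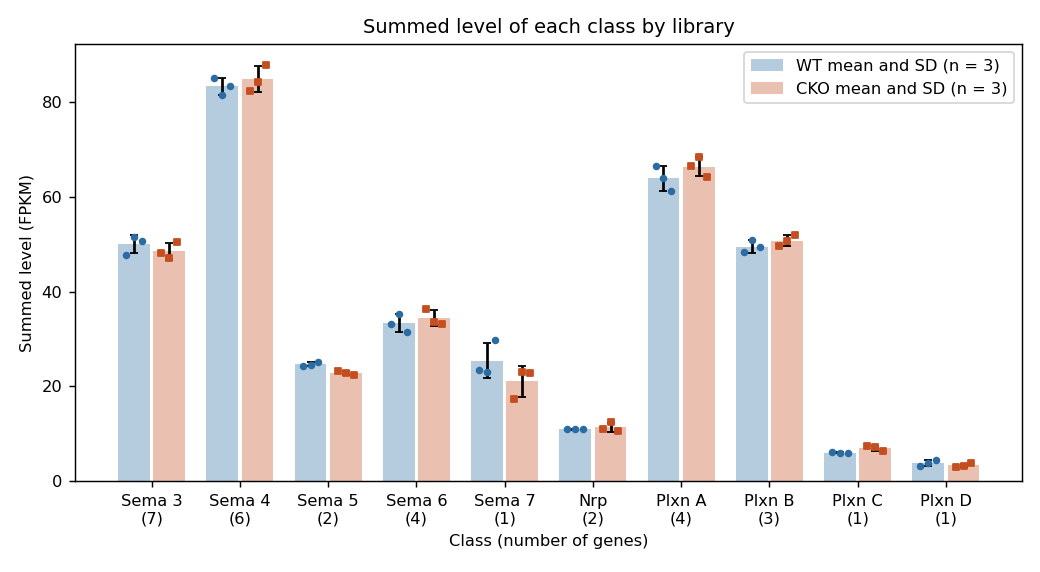
Summed FPKM of each class (x axis, with the number of genes in brackets) in WT (blue) and CKO (orange) libraries; bars are means, error bars are SD over 3 libraries and points are single libraries. Class 4 semaphorins and A-type plexins have the highest sums, and the groups do not overlap for class 5, class 7 and plexin C.

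In the comparison of CKO with WT, Cyfip2 itself was first checked. It was at 8.33, 10.2 and 11.2 FPKM in CKO and at 35.5, 63.1 and 62.3 FPKM in WT, so every CKO library was below every WT library. The log2 fold change on the log2(FPKM + 1) scale, used for all tests, was -2.29 (SE 0.21, limma adjusted p = 0.0239). WT 1 was the lowest WT library, and without it the change was -2.55 (limma adjusted p = 0.0016). Among the other single libraries left out, each of CKO 1, CKO 2, CKO 3, WT 2 and WT 3 took the adjusted p above 0.05 (0.0663 to 0.197).

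No semaphorin, plexin or neuropilin gene passed the threshold. By limma, 0 of the 28 tested members had an adjusted p under 0.05, against 0.0227% of all 13215 genes (0.0151% higher and 0.00757% lower in CKO), and the members' adjusted p-values ran from 0.467 to 0.992. At an unadjusted p under 0.05 there was 1 member, Sema5b, which was lower in CKO; over all tested genes 7.88% had such a p, 3.52% higher and 4.36% lower in CKO. Fold changes were small. They lay between -0.26 and 0.18 on the log2 scale, with a median of 0.04 against -0.0016 over all genes, and 19 were above 0 and 9 below 0. The median size regardless of sign was 0.06, against 0.07 over all genes. The 95% confidence interval of 27 of the 28 members lay within 0.5 of 0 on that scale, Sema7a being the exception (-0.56 to 0.04).

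**Figure D3:**
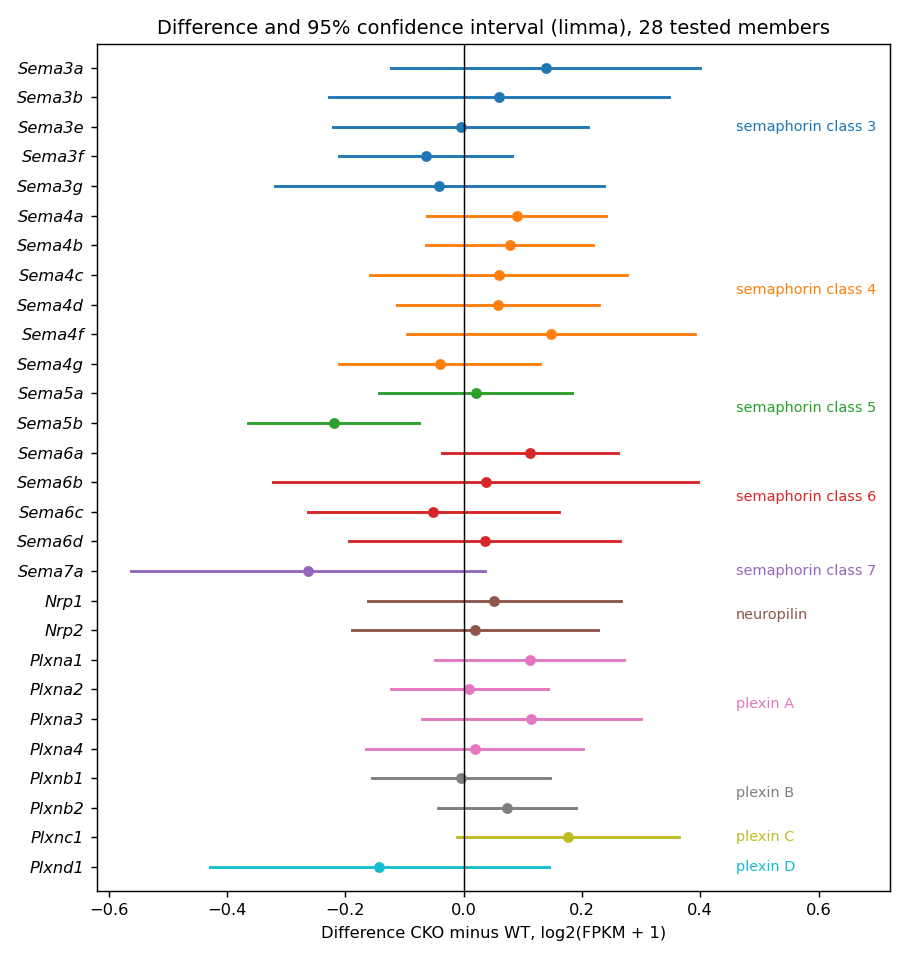
Difference CKO minus WT on the log2(FPKM + 1) scale (x axis) for the 28 tested members, with 95% confidence intervals from limma, ordered and coloured by class. The interval of Sema5b is the only one that leaves out 0, and it belongs to a gene short of the adjusted threshold.

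The groups did not overlap for 7 of the 28 tested members, 5 higher and 2 lower in CKO. Over all tested genes 13.9% did not overlap, 6.96% higher and 6.95% lower. The 5 members higher in CKO were Plxnc1, Plxnb2, Plxna3, Sema4a and Sema4b; the 2 lower were Sema5b and Sema7a. The count depended on single libraries: without CKO 3 it was 11 higher, against 12.3% of all genes, and without WT 1 it was 7 higher and 4 lower, against 12.8% and 13.1%. Left out in turn, the other libraries gave 5 to 6 higher and 2 to 3 lower members, against 11.0% to 12.1% of all genes in a direction.

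Sema5b, which encodes a repellent ligand of plexins A1 and A3, had the smallest p of the family. It was at 11.3, 10.9 and 11.8 FPKM in CKO and at 13.6, 12.9 and 13.7 FPKM in WT. The lowest WT library stood 1.08 FPKM above the highest CKO library, the widest gap among the 7 genes, and the values within each group lay close together. The CKO mean of 11.4 ± 0.450 FPKM was 0.848 times the WT mean of 13.4 ± 0.436 FPKM (SD, n = 3 libraries per group). The log2 fold change was -0.22 (SE 0.06, interval -0.36 to -0.08), with an unadjusted p = 0.00795 and a limma adjusted p = 0.467. Its close relative Sema5a showed no such gap. Sema5a was at 11.9, 11.9 and 10.6 FPKM in CKO and at 10.8, 11.7 and 11.4 FPKM in WT (0.02, interval -0.14 to 0.18). The receptor genes of both ligands had fold changes above 0 and did not pass: Plxna1 at 0.11 (interval -0.05 to 0.27) and Plxna3 at 0.11 (interval -0.07 to 0.30). Plxna3 was at 5.45, 6.10 and 5.65 FPKM in CKO and at 5.39, 5.098 and 5.15 FPKM in WT, with 0.0533 FPKM between the nearest libraries. Plxna1 was at 19.8, 22.1 and 21.1 FPKM in CKO and at 20.2, 20.1 and 17.9 FPKM in WT, and here the groups overlapped.

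Sema7a and Plxnc1, a ligand and its receptor, lay in opposite directions. Sema7a was at 17.4, 23.0 and 22.8 FPKM in CKO and at 23.5, 23.1 and 29.8 FPKM in WT. CKO 1 and WT 3 stood apart at the low and the high end, and the other 4 libraries lay between 22.8 and 23.5 FPKM, with 0.122 FPKM between the groups. The log2 fold change was -0.26 (SE 0.13, limma adjusted p = 0.684). It was -0.14 without CKO 1 and -0.15 without WT 3. Plxnc1 was at 7.404, 7.19 and 6.39 FPKM in CKO and at 6.28, 5.94 and 5.99 FPKM in WT. All CKO libraries were thus above all WT libraries, and CKO 3 was close to WT 1. The means were 6.997 ± 0.533 and 6.07 ± 0.183 FPKM (SD, n = 3 libraries per group), with a log2 fold change of 0.18 (SE 0.08, interval -0.01 to 0.36, limma adjusted p = 0.656). The ratio of Sema7a to Plxnc1 within a library, computed after both values had been seen, was 2.35, 3.20 and 3.57 in CKO and 3.75, 3.89 and 4.97 in WT. That these ratios did not overlap between the groups was fixed by the values of both genes and is no further evidence. The integrin genes Itgb1 and Itga1 were added after values were seen. Itgb1, which encodes the integrin chain that also serves Sema7a, averaged 22.3 ± 1.43 FPKM in the CKO and 24.8 ± 1.05 FPKM in the WT libraries. Its groups did not overlap (log2 fold change -0.15, limma adjusted p = 0.635), as for 6.95% of all tested genes in that direction. Itga1 averaged 1.598 FPKM in the CKO and 1.683 FPKM in the WT libraries, and its groups overlapped (-0.05, interval -0.37 to 0.26, limma adjusted p = 0.954).

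**Figure D4:**
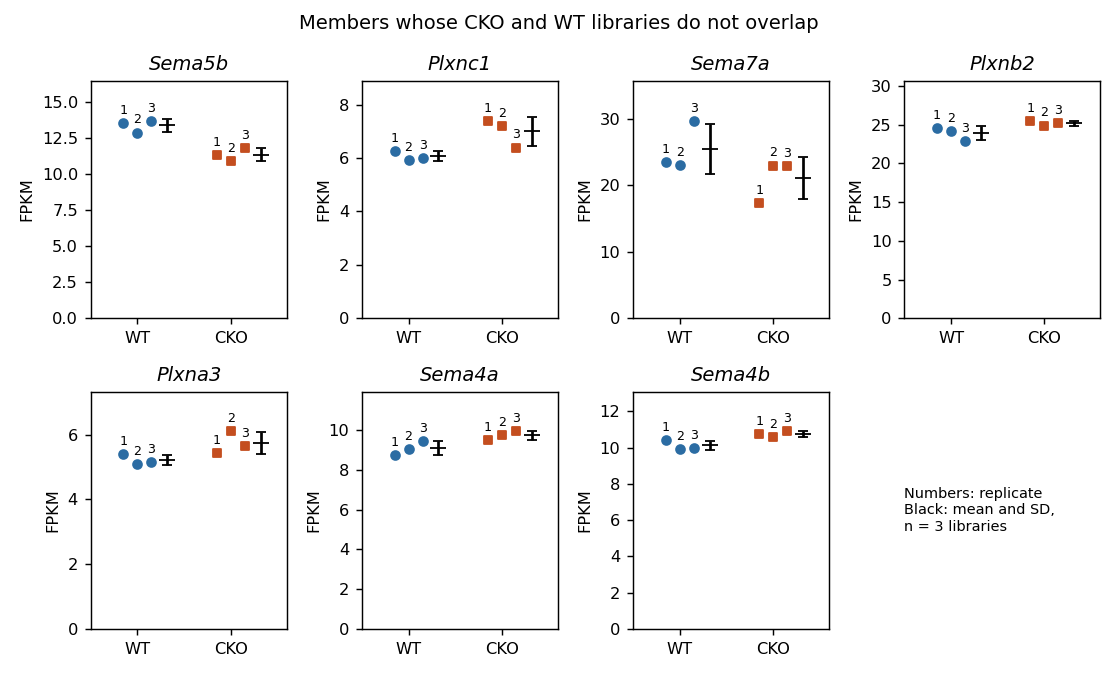
FPKM (y axes from 0) of the 7 tested members whose CKO (orange squares) and WT (blue circles) libraries did not overlap, numbered by replicate; black marks give the mean and SD of 3 libraries. Sema5b shows the clearest gap, whereas in Sema7a CKO 1 and WT 3 stand apart from the other 4 libraries.

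For the other 3 genes without overlap the groups nearly touched. Plxnb2 was at 25.5, 24.9 and 25.2 FPKM in CKO and at 24.6, 24.2 and 22.9 FPKM in WT (log2 fold change 0.07, interval -0.04 to 0.19). Sema4a was at 9.51, 9.72 and 9.93 FPKM in CKO and at 8.76, 9.02 and 9.45 FPKM in WT (0.09, interval -0.06 to 0.24). Sema4b was at 10.7, 10.6 and 10.9 FPKM in CKO and at 10.4, 9.93 and 9.99 FPKM in WT (0.08, interval -0.06 to 0.22). The nearest libraries of the 2 groups were 0.304 FPKM apart for Plxnb2, 0.0543 FPKM for Sema4a and 0.127 FPKM for Sema4b.

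By class, the signs of the differences were uneven, and no class held a called gene. All 4 A-type plexins and 5 of the 6 class 4 semaphorins had fold changes above 0, both with a median of 0.07. The sign of Plxna2 and of Plxna4 turned when some single libraries were left out, and that of Sema4c when CKO 2 was. Of the 5 tested class 3 genes, 2 lay above 0 and 3 below 0 (median -0.0051). Sema3a averaged 2.64 ± 0.230 FPKM in the CKO and 2.31 ± 0.286 FPKM in the WT libraries (0.14, interval -0.12 to 0.40), and Sema3f at 37.5 ± 2.04 and 39.3 ± 2.43 FPKM (-0.06, interval -0.21 to 0.08). Sema6a lay at 0.11 (interval -0.04 to 0.26) and Plxnd1 at -0.14 (interval -0.43 to 0.14). The 3 untested members were Sema3d (0.950 ± 0.159 against 0.874 ± 0.123 FPKM), Sema3c (0.424 ± 0.059 against 0.527 ± 0.121 FPKM) and Plxnb3 (0.0664 ± 0.0257 against 0.0300 ± 0.0127 FPKM), given as CKO against WT, and their groups overlapped.

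The spread over all 6 libraries was of the size common to the retina. The coefficient of variation had a median of 7.01% over the 28 tested members and of 8.14% over all tested genes. It was lowest for Plxna4 (3.75%), Plxnb2 (3.76%) and Sema4b (3.76%). The tested members with the widest spread were Sema7a (16.9%), Sema6b (16.7%) and Plxnd1 (14.5%). For Sema6b the spread lay within both groups, with 8.51 to 11.0 FPKM in CKO and 7.16 to 11.2 FPKM in WT.

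Genes that act with the family were counted in the same fit. A list of 64 co-receptors, adhesion partners, cytoplasmic effectors and proteases held 61 tested genes, of which 0 passed the limma threshold in either direction. At an unadjusted p under 0.05 there was 1 gene, against 7.88% of all tested genes. It was L1cam, a neural adhesion molecule that joins neuropilin 1 in Sema3a receptors. L1cam averaged 33.1 ± 2.29 FPKM in the CKO and 29.7 ± 0.570 FPKM in the WT libraries (log2 fold change 0.15, limma adjusted p = 0.604). The groups did not overlap for 7 of the 61 genes (11.5%), 5 higher and 2 lower, against the 13.9% of all tested genes given above, and 29 fold changes lay above 0 and 32 below 0 with a median of -0.0057. Of the collapsin response mediator proteins, which carry semaphorin signals to microtubules, Dpysl3 was the most abundant at 144.0 ± 10.7 and 147.0 ± 1.66 FPKM (-0.03). Of the Mical genes, which oxidise actin downstream of plexins, the most abundant of the 3 was Mical3 at 8.72 ± 0.378 and 7.89 ± 0.530 FPKM (0.13, limma adjusted p = 0.745).

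The libraries carried the markers of retina, and for several retinal cell types the summed markers did not overlap between the groups, although no marker gene passed the limma threshold (lowest adjusted p 0.196). In each library the 5 rod markers summed to between 11832 and 13405 FPKM, while 3 of the 7 pigment epithelium markers (Best1, Lrat and Tyr) and 3 of the 5 lens markers (Lim2, Bfsp1 and Mip) averaged below 1 FPKM. Of the others, Rlbp1 is shared with Muller glia, Ttr averaged 6.46 FPKM, Rpe65 1.26 FPKM and Rgr 1.12 FPKM, and the lens genes Cryaa and Crygs averaged 33.0 and 7.42 FPKM. The 10 ganglion cell markers summed to 701.9 to 728.3 FPKM in CKO and 770.8 to 835.2 FPKM in WT, with 9 of 10 fold changes below 0. For 7 of the 10 the groups did not overlap, all lower in CKO, against 6.95% of all tested genes lower and 13.9% in either direction. All 5 cone markers were below 0 (sums 492.1 to 543.5 against 552.7 to 598.1 FPKM), as were the 5 of starburst amacrine cells (35.1 to 37.0 against 37.6 to 41.6 FPKM) and 4 of 5 of horizontal cells (44.3 to 45.0 against 50.6 to 59.1 FPKM). Of the starburst markers, Chat, Megf10 and Sox2 overlapped between the groups, and Slc18a3 and Slc5a7 did not. The largest part of the horizontal sum came from Calb1 (means 26.6 in CKO and 33.8 FPKM in WT), and Onecut1 lay above 0 (0.22). The 5 general amacrine markers were all above 0 (334.4 to 340.1 against 288.9 to 310.0 FPKM). The sum of the 5 bipolar markers was lower in CKO without overlap, with 3 of 5 fold changes below 0. That of the 5 pericyte markers was higher, with 3 of 5 above 0, no single marker without overlap, and most of the sum from Vtn. The sums of Muller glia, microglia and endothelium overlapped. In bulk retina, fewer cells of a type and less RNA per cell cannot be told apart, and the part of these markers in the values of Sema5b, Sema7a and Plxnc1 was not tested. The 8 endothelial markers, set beside Plxnd1, summed to 110.6 to 122.5 FPKM in CKO and 118.4 to 123.0 FPKM in WT, with 6 of 8 fold changes below 0. The largest part of the sum came from Kdr (57.3 to 70.7 FPKM), whose fold change was above 0 (0.11). Pecam1, Cldn5 and Tie1, 3 of the 8, were lower in CKO without overlap, against 13.9% of all tested genes in either direction. Lens crystallin RNA varied widely, with the 5 lens markers at 13.8 to 24.4 FPKM in CKO and 23.5 to 127.0 FPKM in WT.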

How the data were processed

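Values of 6 libraries (3 CKO, 3 WT) were used as deposited, in FPKM, with 1 value per gene symbol; the unit follows from Cufflinks, version 2.2.1, which the submitters' processing notes name beside build mm10, Bowtie2 2.3.5.1, TopHat2 2.0.13 and SAMtools 1.11, and from the values. RNA was extracted with TRIzol and libraries made with a TruSeq stranded mRNA kit, per the labels' protocols. The sources used here name no annotation or strand setting. In the library WT 3, 27 symbols turned into dates were restored from the same rows of the other libraries. Libraries summed to 402832 to 436299 FPKM; read counts and depth are unknown, so the spread between libraries is the only error. Pearson's r between libraries was 0.968 to 0.979 over tested genes.

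Genes averaging 1 FPKM or more were compared on log2(FPKM + 1) with limma 3.58.1 in R 4.3.3 (variance trend, two-sided, no covariate, Benjamini-Hochberg over all 13215 genes, threshold 0.05). Such fold changes understate the change of low genes. Alternatives changed the pseudocount, the filter, the scaling, the moderation and the replicate block, and left out each library. Named are Cyfip2, every member, and of the pathway list genes with an unadjusted p under 0.05 and the most abundant Dpysl or Crmp and Mical genes. Itgb1, Itga1 and the ligand to receptor ratios were added after values were seen. Members and lists were chosen with earlier results of these data known. Of all symbols, 23310 were found in GENCODE M21, the members among them. Positions are those of GENCODE M21.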

Additional observations from a re-analysis of the deposited data

How the results depend on the processing

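Of the 16 alternative fits, that with a minimum of 5 FPKM left out the members below it. No tested member passed the threshold in any fit it entered, and 16 of the 28 kept their direction in each such fit, among them Sema5b (-0.25 to -0.19; lowest adjusted p 0.389), Sema7a (-0.33 to -0.14) and Plxnc1 (0.14 to 0.23). The other 12 changed sign in at least 1 fit. Quantile normalization turned Plxnb1 to 0.0033; all other turns came with a library left out, over which the log2 fold change ran from -0.0448 to 0.0778 for Nrp2, -0.0179 to 0.0485 for Plxna2, -0.0100 to 0.0497 for Plxna4, -0.0563 to 0.0334 for Plxnb1, -0.0700 to 0.0282 for Sema3e, -0.0934 to 0.0027 for Sema3g, -0.0016 to 0.1349 for Sema4c, -0.1154 to 0.0176 for Sema4g, -0.0078 to 0.0699 for Sema5a, -0.1182 to 0.1739 for Sema6b, -0.1296 to 0.0271 for Sema6c and -0.0094 to 0.1100 for Sema6d; the cause was not tested. Over all genes 2 were higher and 1 was lower in CKO. The higher count was 1 with the replicate block and without the variance trend, and 1 to 3 with a library left out. The lower count was 0 without the filter, with robust eBayes and without the trend, and 0 to 1 with a library left out. Cyfip2 was at -2.39 and -2.40 with pseudocounts of 0.1 and 0.01. At an unchanged -2.29 it missed the threshold without the filter (limma adjusted p = 0.074), with robust eBayes (0.111) and without the trend (0.102). With a library left out it ran from -2.55 to -2.15. The labels do not say whether same-numbered CKO and WT libraries belong together. Their deviations from the group means correlated at 0.0718, 0.00634 and 0.101 for numbers 1, 2 and 3. Those for 1 and 3 were the highest of all CKO and WT pairs, but number 2 did not correlate best with its own number. With 3 libraries per group such correlations cannot settle whether the libraries were paired. With the replicate block, 2 members in place of 1 had an unadjusted p under 0.05, both lower. For the pathway list 0 genes passed in any fit. Absolute depth is unknown, and the 3 members below 1 FPKM were tested only in fits with a lower minimum or no filter, which limits what can be said of them.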
